A study of Mus musculus with 6 samples.

Results

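The genes that mark cortical interneurons and their peptides were followed through 28 days after photothrombotic stroke in mouse cortex. The 9 genes were chosen by name: Gad1, Gad2 and Slc32a1 for GABA itself, Pvalb for a calcium-binding protein, and Vip, Npy, Cck, Sst and Crh for neuropeptides. Of these, 7 had a value, and they had one in every library, out of 15441 genes with a value in the series. Sst and Crh had none in any library. RNA of the whole ipsilateral cortex of male C57/BL6J mice aged 6 to 8 weeks was sequenced as 6 libraries. Stroke was made with 1 mg of Rose Bengal given intraperitoneally, followed by 15 min of light through the skull over the sensorimotor cortex, and cortex was taken at day 1, 3, 7, 14 or 28. Sham mice had the operation without the light and were taken at day 7. Each library pools the RNA of 3 mice, so that every group is 1 library, no difference here has a replicate check, and no p-value is given. Lesion, surrounding tissue and distant cortex are mixed in each stroke library.

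Inhibitory interneurons make GABA from glutamate with 2 glutamate decarboxylases, GAD67 from Gad1 and GAD65 from Gad2, and load it into vesicles with the transporter VGAT from Slc32a1. They fall into subclasses that are told apart by what else they make: parvalbumin in fast-spiking cells, somatostatin in cells that contact dendrites, and VIP in cells that contact other interneurons. Neuropeptide Y is shared by several subclasses, and cholecystokinin marks one group of interneurons but is also made by many excitatory cortical neurons. CRH, the stress peptide of the hypothalamus, is found in some cortical interneurons too.

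The stretches of promoter that precede the peptide genes on which the results turn are shown first. Cck is shown because its level varied most across the libraries, and Vip and Npy because theirs were below sham at all 5 days. Each is the 250 bases just before the transcript start in RefSeq (GRCm38.p6), printed 5′ to 3′ along the gene, Cck from chr9:121495695-121495944 on the minus strand, Vip from chr10:5638968-5639217 and Npy from chr6:49822460-49822709, both on the plus strand. Capitals mark TGACG on either strand (read as CGTCA on the other), which is the shared core of the cAMP response element, and TATAAA on the gene's strand.
Cck: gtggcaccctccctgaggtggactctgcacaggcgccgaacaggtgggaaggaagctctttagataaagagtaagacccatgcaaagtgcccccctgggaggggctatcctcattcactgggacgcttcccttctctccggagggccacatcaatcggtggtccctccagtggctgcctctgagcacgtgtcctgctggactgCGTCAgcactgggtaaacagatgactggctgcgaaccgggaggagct
Vip: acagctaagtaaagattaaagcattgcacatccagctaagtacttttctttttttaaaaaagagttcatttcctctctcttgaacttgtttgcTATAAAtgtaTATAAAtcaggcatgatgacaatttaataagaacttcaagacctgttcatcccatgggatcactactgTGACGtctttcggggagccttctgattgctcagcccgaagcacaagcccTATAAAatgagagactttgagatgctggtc
Npy: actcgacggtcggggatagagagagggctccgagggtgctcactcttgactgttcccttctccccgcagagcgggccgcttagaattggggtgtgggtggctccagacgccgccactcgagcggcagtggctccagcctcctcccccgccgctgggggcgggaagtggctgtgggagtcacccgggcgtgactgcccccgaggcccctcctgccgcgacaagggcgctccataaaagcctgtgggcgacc

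The Cck stretch held 1 TGACG core, read as CGTCA from position -47, counted back from the transcript start. The Vip stretch had 1 core from position -79 and TATAAA from positions -157, -147 and -30. Neither was found in that of Npy. The base composition differed widely, with 38.4% G and C for Vip, 60.0% for Cck and 69.2% for Npy. RefSeq had a promoter for 8 of the 9 genes, Crh being the one not matched, and TGACG was found in 4 of them (Sst, Vip, Cck and Gad2), against 17.8% of 32851 promoters. The full element TGACGTCA, which holds the core on both strands, was found in 1 of the 8, Sst, against 1.55% of all promoters. TATAAA was found in 1 (Vip) against 7.59%, TGANTCA on either strand in 0 against 6.75%, and the E-box CANNTG on either strand in 6 against 66.2%. The 8 genes had 9 promoters, with more than 1 for Pvalb alone. A gene was counted with a match in any of its promoters, while the shares count each promoter. The E-box of Pvalb lay in chr15:78204238-78204487 and not in the stretch just before the annotated gene. The RefSeq stretches of Gad2 (chr2:22622077-22622326) and Sst (chr16:23890845-23891094) overlap the annotated spans of these genes given below. Their TGACG matches, the full element of Sst among them, lie inside those spans. The stretch of Gad1 (chr2:70561879-70562128) lies wholly inside its span. A match is a run of letters and not a binding site, and no binding was measured.

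The measure throughout is the FPKM the authors deposited, in which fragments are scaled both to the length of the transcript and to the size of the library, which allows levels of different genes to be set side by side. A difference from sham is given as log2 of the ratio after adding 0.1 FPKM to both, and counts of differences use a log2 ratio of at least 1 in size, which is 2-fold, among genes with at least 1 FPKM in sham or the day compared. The 5 comparisons share the single sham library, so an unusual value there would move all of them together. In RNA of whole tissue, fewer cells of a type and less RNA per cell cannot be told apart.

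None of the 7 genes was 2-fold higher or lower than sham at any day. Over all genes tested, the shares that passed that size in either direction were 9.58%, 11.1%, 10.7%, 15.9% and 6.47% for days 1, 3, 7, 14 and 28. Abundant genes passed it less often, and these 7 are abundant: among the 4938 genes with at least 10 FPKM in sham, a limit chosen after the values were seen, the shares were 2.73%, 2.75%, 2.47%, 5.47% and 1.72%. The median log2 ratio of the 7 genes on those days was 0.12, -0.21, -0.064, -0.035 and -0.19, where the median over all genes lay between 0.014 and 0.098. These medians were small and their sign was not stable. Relative to the median of 12 genes taken as general neuronal markers (pan-neuronal below) they were 0.18 and 0.23 on days 3 and 7. With summed transcript starts as the gene value, which 6 of the genes had, they were 0.014 and 0.056 on days 7 and 28. Above sham were 4 genes at day 1, 2 at day 3 and 3 at each later day. With the limit lowered to 0.58, Cck alone passed, higher at days 1 and 14, and no gene was lower. Of all genes, 11.6%, 16.1%, 15.4%, 18.6% and 9.02% were higher by that limit on the 5 days, and 11.3%, 6.65%, 6.11%, 13.5% and 6.98% lower. With 7 genes and 1 library a group, a count of 0 says only that no difference reached 2-fold, and smaller ones were not resolved.

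**Figure D1:**
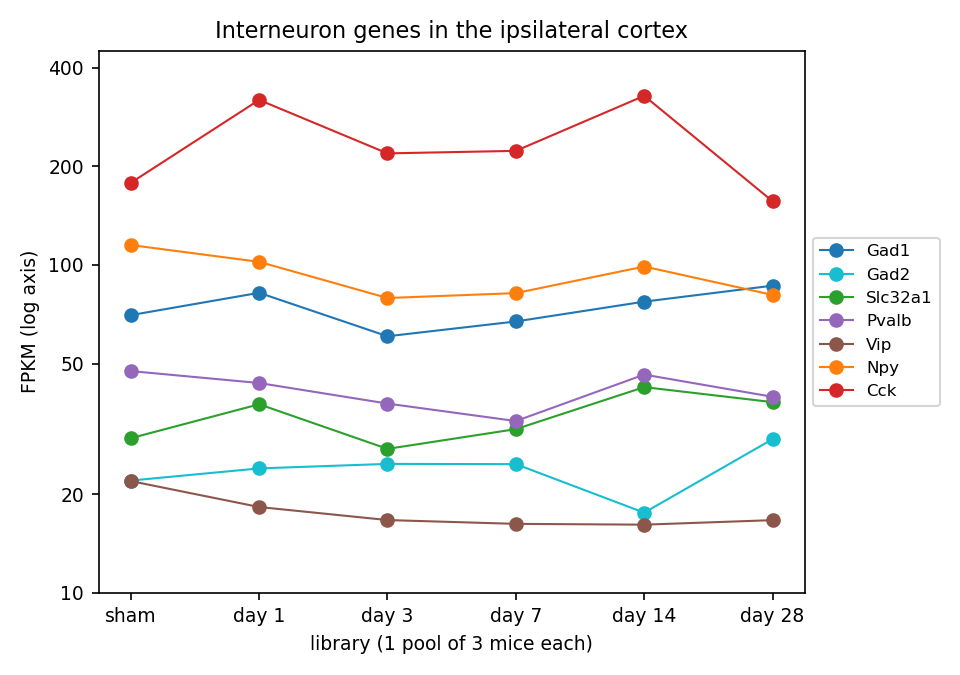
Level of each of the 7 genes with a value (FPKM, log axis) in the sham library and in the libraries of day 1, 3, 7, 14 and 28; each point is 1 pool of 3 mice, and lines join the points of a gene. Cck lies on top in every library with peaks at day 1 (318.6) and day 14 (327.9), and Vip at the bottom, lower than its sham level of 21.9 at every day.

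The levels kept nearly the same order in all libraries. From the top it was Cck, Npy, Gad1, Pvalb, Slc32a1, Gad2 and Vip in sham and at days 1, 3, 7 and 14, and the single change came at day 28, where Gad1 (86.5 FPKM) stood above Npy (81.0 FPKM). Neighbours in this order could lie very close, as Gad2 at 22.0 and Vip at 21.9 FPKM in sham did, and without replicates no spread is known by which to separate them. In sham, Cck ranked 160 among the 13267 genes listed and Vip ranked 2413.

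Gad1 (ENSMUSG00000070880, chr2:70553072-70602014, plus strand, GRCm38), the gene of the decarboxylase that makes most of the cell's GABA, had 70.3 FPKM in sham and 82.2, 60.6, 67.2, 77.3 and 86.5 at days 1, 3, 7, 14 and 28. It was lowest at day 3 and highest at day 28, and the highest value was 1.43 times the lowest. The log2 ratio to sham was 0.23 at day 1, -0.21 at day 3 and 0.30 at day 28. Gad2 (ENSMUSG00000026787, chr2:22622205-22693874, plus strand), whose product sits at synaptic terminals, had 22.0 FPKM in sham and 24.0, 24.7, 24.7, 17.6 and 29.4 after stroke. It was above sham at all days but day 14, where its log2 ratio was -0.32, and it differed from sham most at day 28, by 0.42. Slc32a1 (ENSMUSG00000037771, chr2:158610767-158615748, plus strand), the vesicular transporter, had 29.6 FPKM in sham and 37.6, 27.5, 31.6, 42.4 and 38.2 after stroke. Only the day 3 library was below sham (-0.11), and the largest log2 ratio was 0.52 at day 14.

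These 3 genes act in one path but were not in step at day 14. There Slc32a1 stood at its highest and Gad2 at its lowest of the 6 libraries. The ratio of Slc32a1 to Gad2 was accordingly 2.42 at day 14, against 1.11 to 1.57 in the other libraries. The ratio of Gad1 to Gad2 was 4.4 at day 14, against 2.45 to 3.43 elsewhere. From day 14 to day 28, Gad2 was 0.74 higher on the log2 scale. At day 28 all 3 were above sham, with log2 ratios of 0.30 for Gad1, 0.42 for Gad2 and 0.36 for Slc32a1. The longest annotated transcript of Gad2 has 5744 nt, the most of the 7 genes, and the length of a transcript moved with the day 14 values, as described with Cck.

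Pvalb (ENSMUSG00000005716, chr15:78191114-78206400, minus strand), which encodes the calcium buffer of fast-spiking interneurons, had 47.5 FPKM in sham. After stroke it had 43.6, 37.8, 33.4, 46.3 and 39.6 FPKM. All 5 values were below sham, with the lowest at day 7 (log2 ratio -0.505) and one close to sham at day 14 (-0.035). Its value in each library came from a single transcript end.

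Vip (ENSMUSG00000019772, chr10:5639218-5647617, plus strand) had 21.9 FPKM in sham and 18.3, 16.7, 16.2, 16.1 and 16.7 after stroke. The level as deposited was lower at day 1 and then stayed within a narrow range from day 3 on, with log2 ratios between -0.39 and -0.44. The range from day 3 on was wider in other scales. It ran from -0.40 to -0.65 after the correction for transcript length described with Cck, and from -0.001 to -0.48 relative to the pan-neuronal median. Npy (ENSMUSG00000029819, chr6:49822710-49829507, plus strand) had 115.0 FPKM in sham and 102.2, 79.3, 82.0, 98.9 and 81.0 after stroke. It was furthest below sham at day 3 (-0.54) and day 28 (-0.50), and nearest at day 1 (-0.17) and day 14 (-0.22), an order that turned with the correction for transcript length described with Cck, after which day 14 was the furthest (-0.64). Relative to Gad1, both peptides were lowest at day 28, where the ratio of Vip to Gad1 was 0.193 against 0.312 in sham and that of Npy to Gad1 was 0.937 against 1.64 in sham. The ratio of Npy to Vip ranged only from 4.76 to 6.13. Neither gene reached a 2-fold difference, and whether animals within a group vary by as much is unknown.

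Cck (ENSMUSG00000032532, chr9:121489824-121495694, minus strand) had 178.0 FPKM in sham and 318.6, 218.9, 222.8, 327.9 and 156.4 after stroke. The libraries of day 1 and day 14 were the high ones, those of day 3 and day 7 lay between, and that of day 28 was the lowest of all 6. The log2 ratios to sham were 0.84, 0.30, 0.32, 0.88 and -0.19 in the same order. At day 1 it was larger than that of 93.3% of all genes tested, and of 98.0% of those with at least 10 FPKM in sham. At day 14 these shares were 89.3% and 97.0%. Against Npy, the next gene in the order, Cck was 1.55 times as abundant in sham, 3.12 times at day 1, 3.32 times at day 14 and 1.93 times at day 28. Steps between consecutive libraries were compared after the values were seen, and 1 of the 28 passed 2-fold: Cck was 1.07 lower on the log2 scale at day 28 than at day 14. Of all genes, 12.4%, 6.03%, 12.7% and 14.8% passed it in either direction in the 4 steps, in order of time.

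**Figure D2:**
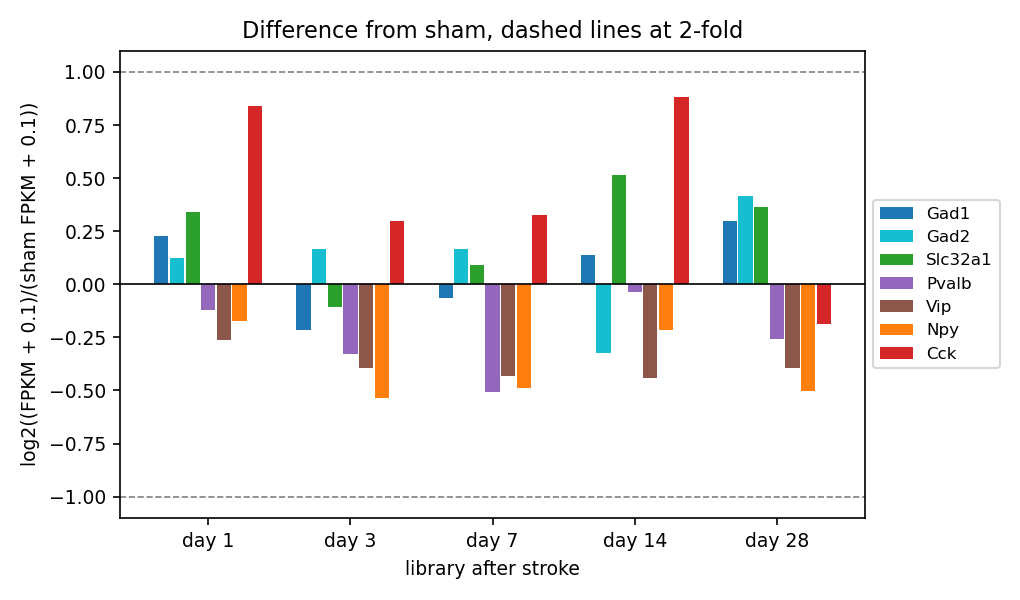
Difference of each gene from sham (log2 ratio with 0.1 FPKM added, 1 bar per gene) in the 5 libraries after stroke, with dashed lines at 2-fold in either direction. No bar reaches a dashed line, the tallest are those of Cck at day 1 (0.84) and day 14 (0.88), and the bars of Vip, Npy and Pvalb point down at every day.

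The libraries of day 1 and day 14 also differed from sham in a way that followed transcript length. Across all genes, the rank correlation of the log2 ratio with the length of the longest transcript was -0.254 at day 1 and -0.413 at day 14, so that short transcripts had the higher ratios, against 0.0033, -0.0893 and -0.0360 on days 3, 7 and 28. These are descriptions over 11731 to 12050 genes that share the same libraries. Cck is short, with 799 nt against a median of 3410 nt at day 14. With each library divided by its median trend over length, the log2 ratio of Cck was 0.67 at day 1 and 0.46 at day 14, and its step from day 14 to day 28 was -0.68, short of 2-fold. Npy (566 nt) and Pvalb (977 nt) went the other way from sham and were further below it after the division, at -0.64 and -0.46 for day 14, and Vip (2532 nt) was at -0.65. For Gad2 the day 14 value was -0.13 and for Slc32a1 0.33, so that they still lay on opposite sides of sham but closer together. What lies behind the trend with length was not tested.

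**Figure D3:**
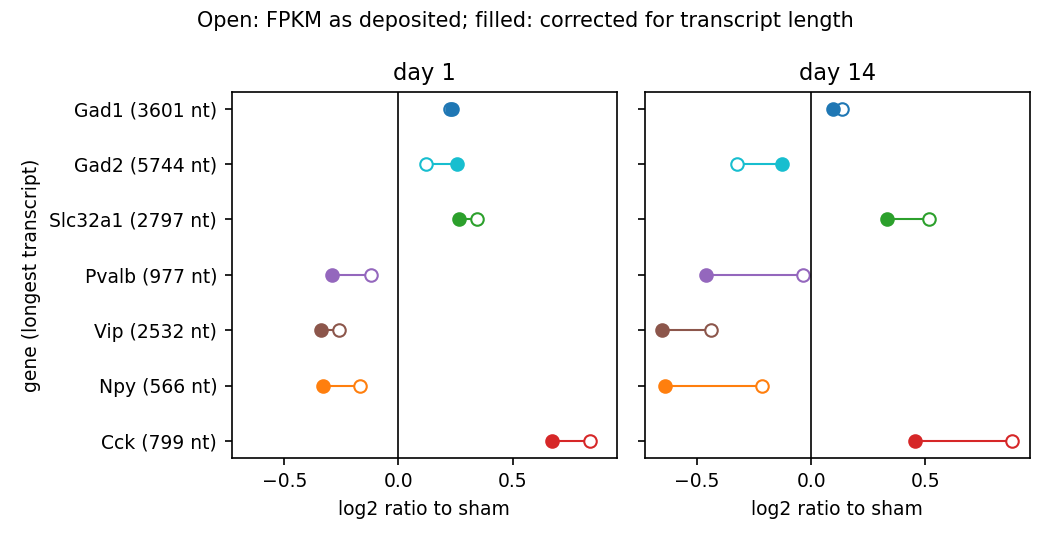
Log2 ratio to sham of each gene at day 1 and day 14, as deposited (open points) and after division by the trend over transcript length (filled points), with the longest transcript of each gene in nt. Cck moves from 0.84 to 0.67 at day 1 and from 0.88 to 0.46 at day 14, and the short Npy and Pvalb move further below sham.

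Genes of other regions and cell types also differed between the libraries. Those typical of the hypothalamus had a summed level of 2.21 FPKM in sham and 63.9, 14.8, 41.4, 31.1 and 8.61 FPKM after stroke over 9 of 12 genes with a value. Avp, Oxt and Pmch, the genes of 3 hypothalamic peptides, were not listed in sham, and Hcrt, Agrp and Kiss1 were not listed in any library. Striatal genes, the peptide genes Penk and Tac1 among them, summed to 420.5 FPKM in sham and 374.3 to 558.4 after stroke. This was over 7 of 10 genes, none of them 2-fold different. Microglial genes, 7 of 8 with a value, summed to 72.2 FPKM in sham and were highest at day 7 with 254.3. Of 7 astrocyte genes, Gfap alone passed 2-fold, with 85.8 FPKM in sham and 329.9, 697.9, 422.4, 380.0 and 149.7 after stroke, at days 1 to 14. Of 5 oligodendrocyte genes with a value, Mag alone did, at day 7 (33.8 FPKM in sham and 69.0 FPKM, log2 ratio 1.03). The median log2 ratio of 12 pan-neuronal genes was -0.065, -0.39, -0.30, 0.038 and -0.16 at the 5 days, and that of 11 genes of glutamatergic neurons -0.042, -0.32, -0.44, -0.023 and -0.14. The part that these cells have in the values of Cck, Npy and the GABA genes was not tested.

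Set against the pan-neuronal median of the same library, the 3 GABA genes were above it on days 1, 3, 7 and 28, with log2 values from 0.18 to 0.58, while at day 14 Gad1 (0.098) and Slc32a1 (0.48) were above it and Gad2 (-0.36) below. In this scale Gad1 was at 0.18 and 0.23 on days 3 and 7, Slc32a1 at 0.28 and Pvalb at 0.063 on day 3, where all were below sham as deposited. Npy was below that median at all 5 days (-0.11 to -0.34), and Vip at 4 of them (-0.14 to -0.48), being level with it at day 3 (-0.001). Of 275 values of the 7 genes under 8 alternative ways of computing them (7 for Pvalb), these 4 (Gad1 at days 3 and 7, Slc32a1 and Pvalb at day 3) were the only ones with a sign other than as deposited.

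Sst (ENSMUSG00000004366, chr16:23889573-23890958, minus strand) and Crh (ENSMUSG00000049796, chr3:19693401-19695396, minus strand) could not be followed. No start, end or splicing event of any gene identifier lay in their spans in any library. This is not read as lack of RNA, since genes that neurons of every kind use, Tubb3 and Elavl3, and the cortical genes Neurod2 and Neurod6 had no value either. For the 7 genes with a value, each was assembled as 1 locus with no other gene in it. Gad1 and Slc32a1 have annotated antisense genes, Gad1os and Gm14205, whose reads the strand-specific libraries should separate.

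The events behind the gene values gave a look at transcript forms. Vip showed the largest split. Exon 2 (chr10:5640618-5640734) was joined either to the annotated start of exon 3 at 5642469 or to an acceptor 3 bases further on. The latter is not in the GENCODE M21 transcript read here, and other transcripts of Vip were not checked. The sequence across the join, from the GENCODE transcript, has those 3 coding bases, chr10:5642469-5642471, in capitals.
Vip junction: ttctgtagtgagTAGgctggatgacag

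The longer form keeps these 3 bases and the shorter one lacks them, with the reading frame the same in both. The acceptor further on took 17.7% of the spliced FPKM in sham and 13.7%, 9.95%, 21.3%, 10.4% and 19.99% at days 1, 3, 7, 14 and 28. The libraries of day 3 and day 14 were low and those of day 7 and day 28 high, with no order in time, and the counts behind these shares are unknown. For Cck, starts downstream of the first took 8.33% of the start FPKM in sham and 4.69% to 6.83% after stroke. For Gad1 they took 1.28% at day 1 and 7.47% at day 3, with 2.98% in sham. Gad1 has an 80 nt exon at chr2:70584420-70584499, part of a transcript annotated as a target of nonsense-mediated decay, and only the form that skips it was listed in all 6 libraries.

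The genes around these 9 were taken as fixed lists, in all 77 genes of GABA turnover, interneuron transcription factors, subclass markers, peptide receptors, peptide processing and other cortical peptides, of which 72 had a value. Those compared on the 5 days numbered 65, 66, 65, 64 and 64, and at least 2-fold higher were 3, 2, 3, 3 and 0 of them, or 4.62%, 3.03%, 4.62%, 4.69% and 0%. Among all genes 5.11%, 8.54%, 8.53%, 8.97% and 3.68% were. At least 2-fold lower were 3, 0, 0, 4 and 1, against 4.48%, 2.53%, 2.12%, 6.92% and 2.79% of all genes. The median log2 ratio of the 77-gene set lay between -0.087 and 0.14.

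**Figure D4:**
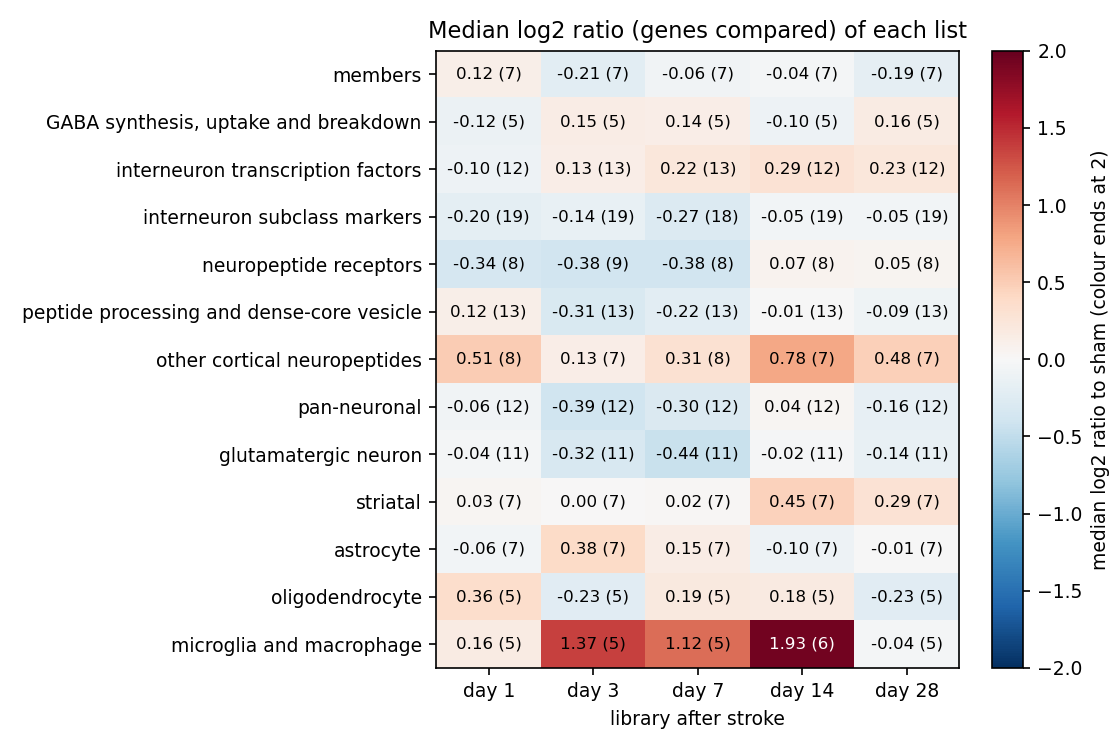
Median log2 ratio to sham for 13 gene lists (rows, without the hypothalamic list, most of whose genes were not listed in sham) in the 5 libraries after stroke (columns), with the number of genes compared in brackets; colour runs from blue (lower) to red (higher) and ends at 2. The 7 interneuron genes (top row, -0.21 to 0.12) and most lists on interneurons and neurons stay pale. The row of other cortical neuropeptides is redder, up to 0.78 at day 14. Of the rows drawn the microglial one is the darkest at days 3, 7 and 14.

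The list on the uptake and breakdown of GABA held no 2-fold difference at any day, and its medians ran from -0.12 to 0.16. Abat, the transaminase that begins the breakdown of GABA, had 55.8 FPKM in sham and 45.2 to 61.5 after stroke, and Aldh5a1, the dehydrogenase of the next step, had 13.7 FPKM in sham and 10.9 to 15.4 after stroke. Both were lowest at day 14, with log2 ratios of -0.30 and -0.33. Of the transcription factors, Lhx6, which cells of the Pvalb and Sst subclasses need, had 3.61 FPKM in sham and 2.84 to 4.41 after stroke. Sox6, which acts after Lhx6 in the same cells, had 1.27 FPKM in sham and 0.0481 at day 1, was not listed at day 14, and had 2.27, 1.53 and 1.33 FPKM at days 3, 7 and 28. Prox1 was not listed in sham, had 4.24 FPKM at day 3 and 1.21 at day 7, and is also made by other cells.

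Among 21 subclass markers, Calb2, the gene of calretinin in part of the VIP cells, was 10.8 FPKM in sham and 27.3, 9.78, 16.7, 23.0 and 17.3 after stroke. Its log2 ratio passed 1 at day 1 (1.33) and day 14 (1.08), but at day 14 it was 0.98 with the median of all genes set to 0 and 0.68 after the length correction. Reln, which layer 1 and other interneurons secrete, was lower at day 1, with 1.95 against 8.36 FPKM. Its log2 ratio there was -2.05, or -1.26 with summed transcript starts as the gene value, and it had 13.8 FPKM at day 14. Ndnf, a marker of layer 1 neurogliaform cells, was lower at day 1 (1.86 and 0.717 FPKM, log2 ratio -1.26, or -0.74 with 1 FPKM added in place of 0.1). At day 14, Adarb2 was lower by this measure (-1.04, or -0.84 after the length correction and -0.54 with 1 FPKM added), and Erbb4 and Syt2, at 4.41 and 3.87 FPKM in sham, were not listed, though both were listed at day 28. Pthlh, at 1.02 FPKM in sham, was not listed at day 28. Those named, other than Calb2 and Reln, had under 5 FPKM in sham, and a gene missing from 1 library is not read as absent RNA.

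Of 15 receptor genes, 8 or 9 could be compared. Adcyap1r1, the receptor of the VIP-related peptide PACAP, had the highest level, with 22.5 FPKM in sham and 21.9 to 30.8 after stroke, and the others had under 15 FPKM in every library. None of those listed in sham was 2-fold different, and Sstr4, listed at day 3 alone (1.89 FPKM), was the one past the limit. Cckbr, the main brain receptor for cholecystokinin, had 14.0 FPKM in sham and 9.15, 7.91, 9.08, 13.1 and 11.3 after stroke, below sham at every day. Npy1r had 6.65 FPKM in sham and 3.30 at day 1, a log2 ratio of -0.99, just short of 2-fold. Vipr1 had 4.42 FPKM in sham, 5.25 at day 1 and 2.88 to 3.26 from day 3 on. Crhr1 had 5.61 FPKM in sham and 3.83 to 6.63 after stroke.

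Peptide hormones are cut from precursors and stored in dense-core vesicles, and the 13 genes of that machinery had medians from -0.31 to 0.12. Scg2, which encodes the vesicle protein secretogranin II, was the one that passed 2-fold, with 17.1 FPKM in sham and 31.4, 19.9, 36.1, 34.9 and 20.3 after stroke, at days 7 (log2 ratio 1.07) and 14 (1.02). The day 14 call was lost with the median of all genes set to 0 (0.93), after the length correction (0.80), relative to the pan-neuronal median (0.98) and with 1 FPKM added (0.99). Vgf, a precursor made in active neurons, had 73.8 FPKM in sham and 121.7 at day 1. Pcsk2, a convertase that cuts pro-peptides, was below sham at all days, with 74.7 FPKM in sham and 49.7 to 60.5 FPKM after stroke. Of 8 other peptides, Nts (neurotensin) passed at day 1 and day 14, with 2.40 FPKM in sham and 7.15, 4.59, 4.26, 6.83 and 4.21 after stroke, and Gal, not listed in sham, had 1.85 FPKM at day 1 and 2.24 at day 7. Penk, which striatal neurons also make in quantity, had 119.5 FPKM in sham and 205.1 at day 14. The medians of this list were 0.51, 0.13, 0.31, 0.78 and 0.48, the highest of the lists on interneurons at days 1, 7, 14 and 28. These genes are made in the striatum and hypothalamus too, whose summed levels are given above. The striatal sum contains Penk itself, and Tac1 (26.3 FPKM in sham and 44.9 at day 14), so it is not separate from the level of Penk.

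The shape of each gene over the 5 ratios was compared with 10155 other genes listed in all libraries at 1 FPKM or more, by the root mean square difference in log2 ratio. Nearest to Gad1 were Rasgrf1 (0.0533), Gm29361 and Snrpd3, nearest to Gad2 were Aph1b (0.0424), Fbxo38 and Acad11, and nearest to Slc32a1 were Polr2j (0.0322), Tmub1 and Cuedc2. Pvalb was nearest to Il17d (0.0456), Dtwd1 and Rrp15, Vip to Scaf1 (0.0500), Vxn and Zfp277, and Npy to Rnf220 (0.0514), Ndufa4 and Etnk2. For Cck the nearest were Tm9sf1 (0.117), Col9a2 and Atp11a. Within 0.2 there were 1002 genes for Gad1, 548 for Slc32a1, 536 for Pvalb, 364 for Vip, 338 for Gad2, 191 for Npy and 20 for Cck, so that the course of Gad1 was a common one in these libraries and that of Cck a rare one by this count.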

How the data were processed

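RNA-seq of the whole ipsilateral cortex was used as 6 libraries, sham and days 1, 3, 7, 14 and 28 after photothrombosis, each the pooled RNA of 3 mice. Poly(A) RNA went into strand-specific libraries, read as paired ends of 150 bases to a stated mean depth of 33.6 M reads. The submitters' processing notes name Trimmomatic 0.30, HISAT2 2.0.1, HTSeq 0.6.1 and mm10, the UCSC name of GRCm38; the assembler and event caller are not given in the sources used here. The authors deposited FPKM for each start, end and splicing event of a transcript (83501 to 99187 events a library used), so that the depth of a library is unknown and no interval or floor is given. A gene value was the largest of its summed starts, summed ends and any single event. A gene not listed was taken as 0 in counts, and no ratio is given for it. Ratios used a pseudocount of 0.1 FPKM and a minimum of 1 FPKM in either library. With 1 library per group no test was possible. The length trend used 20 bins of the longest GENCODE M21 transcript (15411 of 15441 identifiers matched). Named from a list were its genes past 2-fold at any day and others that show its spread. Of the listed genes, 1 is not reported here by itself. For each of the 7 genes with a value, the 3 nearest genes were also named. The genes and lists were chosen with earlier results of these data known. Alternatives covered the pseudocount, the gene value, scaling, filter, threshold and genes not listed. Steps were tested on simulated data. Promoters come from RefSeq GRCm38.p6. Scripts ran in Python 3.11.15 with pandas 2.3.3, numpy 2.4.6, matplotlib 3.10.9 and scipy 1.17.1.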

Additional observations from a re-analysis of the deposited data

How the results depend on the processing

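Over 635 values under the alternatives, 40 counts of genes moved by over 1.5 times. No ratio of the 7 genes and no median moved by 0.58 or more on the log2 scale. None of these ratios and medians was past 2-fold as reported, so a turn of sign from past 2-fold could not arise. Values near 0 did turn: 4 of 275 single ratios, 4 of 50 medians of the 7 genes and 5 of 50 of the 77. The 7-gene medians that turned were 0.18 and 0.23 on days 3 and 7 relative to the pan-neuronal median, and 0.014 and 0.056 on days 7 and 28 with summed starts, which leave 6 genes. Those of the 77 genes were 0.32 and 0.25 on days 3 and 7 relative to that median, -0.031 and -0.0016 on days 14 and 28 with summed starts, and -0.020 on day 28 with at least 5 FPKM. For the 7 interneuron genes, the count past the limit stayed 0 under every alternative but the log2 limit of 0.58, where 1 gene, Cck, was higher at day 1 and 1 at day 14, beside 11.6% and 18.6% of all genes. For the wider set of 77 genes, 65, 66, 65, 64 and 64 were compared on the 5 days. The limit of 0.58 gave 8, 6, 11, 13 and 7 higher, beside 11.6%, 16.1%, 15.4%, 18.6% and 9.02% of all genes. It gave 7, 5, 2, 9 and 2 lower, beside 11.3%, 6.65%, 6.11%, 13.5% and 6.98% of all genes. A limit of 2 gave 1 higher at day 1 and 0 at day 14. With summed starts, the lower genes numbered 5, 1, 8 and 2 on days 1, 3, 14 and 28, and 1 was higher on day 28. With summed ends, 1 was higher at day 3 and 5 at day 14. Scaling to a median of 0 gave 1 higher at day 14. Relative to the pan-neuronal median, 5 were higher at day 3 and 6 at day 7. With no minimum, the higher genes numbered 5, 4, 7, 5 and 3 on the 5 days, and 1 was lower on day 3 and 1 on day 7. With at least 5 FPKM, 1, 0 and 0 were lower on days 1, 14 and 28, and 0 and 1 higher on days 3 and 7. With genes missing from either library left out, 0 and 1 were higher on days 3 and 7, and 1 and 0 lower on days 14 and 28. Genes compared numbered 60 to 62 with summed starts, 55 to 57 with summed ends, 67 to 71 with no minimum and 45 to 48 with at least 5 FPKM. Shares of all genes were computed only for the limits of 1 and 0.58 at the reported settings. The other counts have no share of all genes beside them, and nothing is read from them. The filter, the limit and the listing change which genes are counted by their construction; for the other settings the cause was not tested. No paired analysis was possible because each group is 1 library. No library could be left out for the same reason. Single pools and unknown depth limit every comparison, and most of all the genes under 5 FPKM and the shares of transcript forms.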
